A study of Mus musculus with 6 samples.

Results

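The genes described are 9 members of the tumour necrosis factor (TNF) superfamily, chosen by name as receptors and ligands of the family other than the death ligands. They comprise 6 receptor genes (*Tnfrsf1a*, *Tnfrsf1b*, *Ltbr*, *Cd40*, *Tnfrsf9* and *Tnfrsf14*) and 3 ligand genes (*Tnfsf4*, *Tnfsf13* and *Tnfsf13b*). All 9 were found among the 38739 genes of the table analysed. Neutrophils were washed from the peritoneum of male cGAS knockout mice of the C57B/L6 strain, 8 weeks old, after an injection of thioglycolate that draws neutrophils into the cavity. For 2 h the cells received either no stimulus (untreated, 3 samples) or lipopolysaccharide (LPS) from *E. coli* (3 samples). Both groups carried the cGAS deletion, and no wild-type sample was analysed here. The labels give an LPS dose of 500 ng/mL, whereas the methods of the study give a lower one for this experiment. No cell sort is described, and no source used here says whether the replicates came from separate animals, so the p-values measure the spread between these samples, which may be technical.

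TNF superfamily ligands are mostly made as trimers on the cell surface and are often cut free, and their receptors carry cysteine-rich repeats outside the cell. Inside the cell, most receptors recruit TRAF adaptor proteins that activate NF-κB and MAP kinases, and some carry a death domain as well. Resting neutrophils carry both receptors of TNF and shed them on activation, and activated neutrophils are a known source of the B cell survival factors BAFF and APRIL, encoded by *Tnfsf13b* and *Tnfsf13*. LPS acts through Toll-like receptor 4, which drives NF-κB by a separate route, so genes of this family can stand both upstream and downstream of NF-κB.

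The table is labelled as normalized counts, but its values are not whole reads, and they are called scaled TPM here because they have the form of TPM (transcript abundance scaled to a fixed total) as computed by Kallisto, averaged over the annotated transcripts of a gene and divided by a factor for each sample. This reading was inferred from the numbers and the methods of the study, and no source used here states it. Because of the averaging, a level compares samples for the same gene, and a comparison between genes also depends on how many transcripts each has. The number of reads behind a value is unknown, so no counting error or detection limit can be given, and precision can be judged only from how far the 3 samples of a group differ. The deleted gene *Cgas* was listed at 0.18 to 0.31 in the untreated and at 0.029 to 0.18 in the LPS samples. The share of protein-coding genes in the sum over all genes was 21.0 to 28.3% when untreated and 49.7 to 58.9% after LPS. Genes without a match in the annotation (GENCODE M39) counted as not protein-coding in this share. It also covers almost only chromosomes 1 to 13, as far as genes could be placed, so it does not describe the whole transcriptome. Protein-coding genes with a mean of at least 1 had a median log2 fold change of 0.37 and of 0.011 when each sample was instead scaled to its protein-coding sum.

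Markers of B cells, macrophages and dendritic cells were measured beside those of neutrophils. The 10 neutrophil markers measured summed to 9581 to 28283 scaled TPM without LPS and to 15990 to 54498 in the LPS samples, with *S100a8* and *S100a9* the most abundant. These markers did not move together. *S100a8*, *S100a9*, *Lcn2*, *Mmp8* and *Camp* were higher on average after LPS, with groups that overlapped. *Csf3r*, *Cxcr2* and *Ltf* were lower in every LPS sample than in every untreated one, and *Mmp9* and *Ngp* were lower on average. The 7 B cell markers, among them the B cell receptor subunits *Cd79a* and *Cd79b*, summed to 553, 143 and 415 in the untreated samples and to 240, 68.6 and 227 in the LPS samples. The sample numbered 2 had the highest neutrophil sum and the lowest B cell sum of its group in both groups. The 8 macrophage markers summed to 162 to 201 in the untreated and to 272 to 418 in the LPS samples, mostly from *Cd68*. Among them, the complement gene *C1qb* was at 0.71 to 4.75 in the untreated and at 17.3 to 23.9 in the LPS samples. Only *Cd68* and *C1qb* of this list had all LPS samples above all untreated ones. The groups overlapped for *C1qa*, *C1qc*, *Mertk*, *Timd4*, *Marco* and *Fcgr1*, and *Fcgr1* was lower on average after LPS. The 6 dendritic cell markers summed to 15.1 to 37.5 and 36.4 to 68.4, mostly from *Itgax*. *Itgax* and *Clec9a* had all LPS samples above all untreated ones. The groups overlapped for *Zbtb46*, *Cd209a*, *Xcr1* and *Flt3*, and *Xcr1* and *Flt3* were lower on average after LPS. The 8 T and NK cell markers reached 19.6 at most, the 3 mast cell markers 49.1, the 5 eosinophil markers 8.52 with *Epx* at 0 in all 6 samples, and the 7 markers of mesothelial cells and fibroblasts 2.76. In such bulk samples, fewer cells of a type and less RNA per cell cannot be told apart.

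Among the 9 genes, *Tnfrsf1b* had the smallest p, while *Cd40* and *Tnfrsf14* were higher on average after LPS with groups that overlapped in 1 sample. *Tnfsf13b*, at low levels, was lower in every LPS sample than in every untreated one. None of the 9 passed the limits set for a changed gene, which were a log2 fold change beyond 2 or -2 together with an unadjusted p below 0.01 (limma), whereas 2.99% of the 23049 genes tested did, and 4.89% of protein-coding genes with a mean of at least 1 did so as higher and 0.747% as lower (5.63% in all). None had a Benjamini-Hochberg adjusted p under 0.05, against 0.894% of all genes tested as higher and 0.946% as lower (2.48% and 0.713% of the protein-coding genes), although *Tnfrsf1b* lay close to it at 0.053 (limma). At an unadjusted p under 0.05, 3 of the 9 were higher and 0 lower, against 10.3% and 6.66% of all genes tested and 20.5% and 7.48% of protein-coding genes with a mean of at least 1. Voom, used in place of plain log2 values, is meant for read counts and also scales each sample to its sum. With it, 3 of the 9 passed both limits as higher, where 6.73% of all genes tested did so. Over the 9 genes, 6 had a log2 fold change above 0 and 3 below 0, with a median of 0.84 beside 0.013 for all genes tested and 0.37 for the protein-coding genes. A value above 0 was found for 52.9% of all genes tested and 64.9% of the protein-coding genes. All 3 samples of a group lay above or below those of the other group for 2 of the 9, *Tnfrsf1b* (LPS above, 13.1% of all genes and 24.6% of the protein-coding ones) and *Tnfsf13b* (LPS below, 9.75% and 9.89%).

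**Figure D1:**
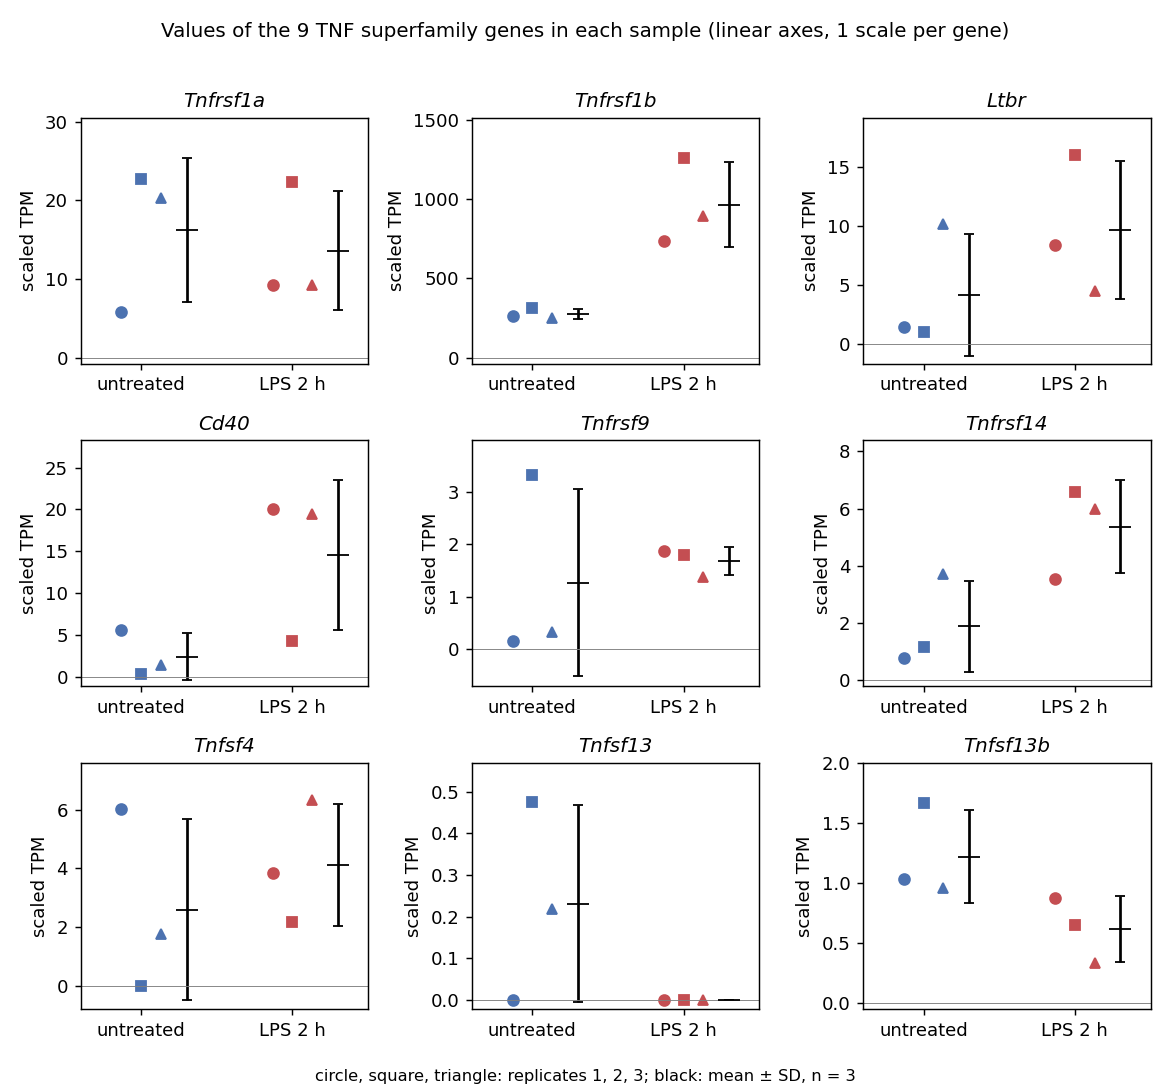
Scaled TPM (linear vertical axes, a separate scale per gene) of each of the 9 genes in the 3 untreated (blue) and 3 LPS (red) samples, with the mean and SD in black. The LPS samples lie above all untreated samples for Tnfrsf1b alone and below them for Tnfsf13b alone, and the samples of a group are spread widely for most other genes.

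*Tnfrsf1b* encodes TNF receptor 2, which has no death domain and signals through TRAF2, and lies on chromosome 4 (144938938 to 144973477, minus strand, GRCm39). Its values were 265, 313 and 253 scaled TPM without LPS and 739, 1262 and 893 in the LPS samples. Each LPS sample was thus more than double the highest untreated one, and the untreated samples were closer to each other than for any of the other 8 genes, with a coefficient of variation of 11.5%. The mean went from 277 ± 32.0 to 965 ± 269 (SD, n = 3), a ratio of 3.48, and the log2 fold change was 1.77 (standard error 0.31, 95% interval 1.01 to 2.52, unadjusted p = 0.0012 and adjusted p = 0.053, limma). Within its own sample, *Tnfrsf1b* exceeded 99.3 to 99.4% of the 12018 protein-coding genes tested when untreated and 99.7% after LPS. This rank also depends on how many transcripts each gene has, because the values are averages over transcripts. Its difference stayed above 0 in all 17 other settings, between 1.26 with scaling to protein-coding genes and 2.40 with voom, at unadjusted p-values of 6.2e-05 to 0.0077. The adjusted p ran from 0.0045 to 0.20 over these settings and was under 0.05 in 4 of them. Without both samples numbered 2 the log2 fold change was 1.65 (unadjusted p = 0.0022, adjusted p = 0.10, limma). The sum of the neutrophil markers was also higher after LPS on average, mostly through *S100a8* and *S100a9*, while other markers in it were lower. Relative to this sum, *Tnfrsf1b* was 2.70, 1.11 and 2.64% in the untreated and 4.07, 2.32 and 5.59% in the LPS samples, and the groups overlapped. Relative to the macrophage sum it was 137, 193 and 126% and 207, 302 and 329%, without overlap. Its ratios to the B cell sum did not overlap either, whereas those to the dendritic cell sum did. These ratios were chosen after the values had been seen, and the part of any cell type in the difference was not tested. A stretch of 184 bases is identical to *Gm68886*, a gene on the other strand that has no row in the table.

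*Tnfrsf1a* encodes TNF receptor 1, the receptor of TNF with a death domain, and lies on chromosome 6 (125325566 to 125339632, plus strand). Without LPS it was at 5.75, 22.7 and 20.3 scaled TPM, and with LPS at 9.25, 22.3 and 9.28. The groups overlapped fully, and the sample numbered 2 was the highest of both. The log2 fold change was -0.16 (standard error 0.62, 95% interval -1.67 to 1.36, adjusted p = 0.90, limma), and its sign turned with voom (0.49) and when any of 4 samples was left out. An interval of this width does not show that *Tnfrsf1a* was unaltered.

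Because TNF receptors 1 and 2 bind the same ligand, the values of the 2 genes were also compared within each sample, where the scaling of the sample cancels apart from the pseudocount. The ratio of *Tnfrsf1b* to *Tnfrsf1a* was 46.2, 13.8 and 12.5 in the untreated samples and 79.9, 56.5 and 96.3 in the LPS samples. All LPS samples lay above all untreated ones. On the log2(scaled TPM + 1) scale the difference between the 2 genes was 4.20 ± 0.96 when untreated and 6.13 ± 0.34 after LPS (SD, n = 3), a shift of 1.92 with p = 0.10 (exact permutation test, two-sided), which is the smallest p that 3 against 3 samples allow. The shift stayed between 1.61 and 2.47 as each sample was left out in turn. The size of the ratio should not be read as a ratio of molecules, because the values are averages over transcripts. GENCODE M39 lists 10 transcripts for *Cd40*, whose value is an average over 7, so the transcript numbers behind the other values are not known from this annotation.

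**Figure D2:**
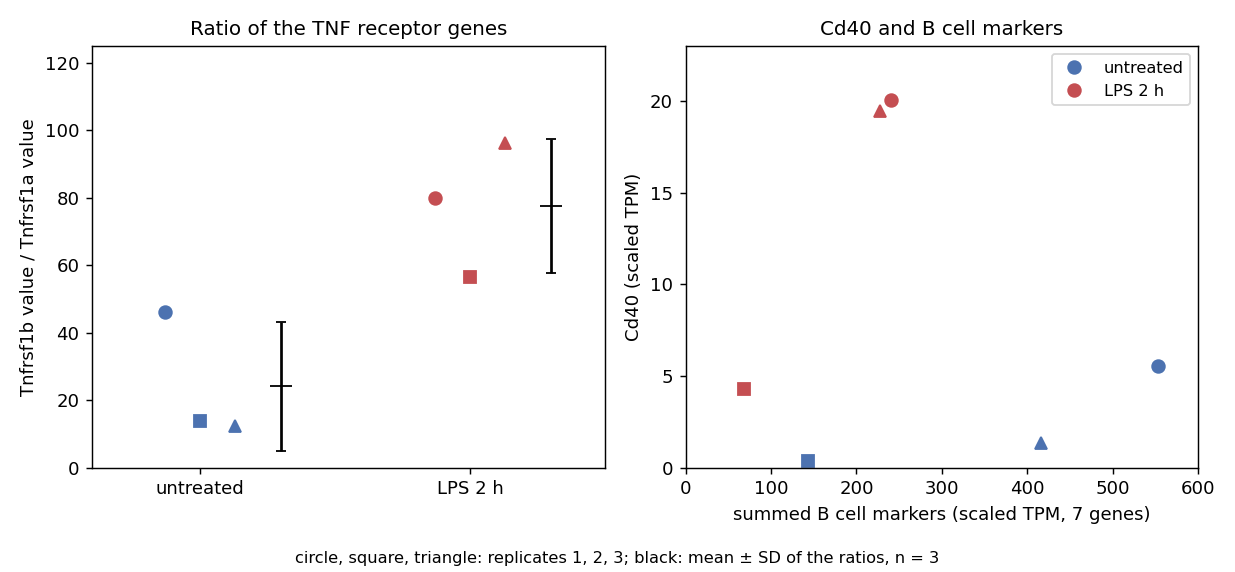
Left, the Tnfrsf1b value divided by the Tnfrsf1a value in each sample (linear axis, untreated blue, LPS red, mean and SD in black, n = 3), where all 3 LPS samples (56.5 to 96.3) lie above the 3 untreated samples (12.5 to 46.2). Right, Cd40 in scaled TPM against the summed scaled TPM of 7 B cell markers, where the 2 values have the same order within each group and each LPS sample has more Cd40 per unit of the marker sum than any untreated sample.

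The promoters of these receptor genes and of *Tnfrsf9*, from 250 bases before to 50 after the start in RefSeq (GRCm38.p6), are shown because both TNF receptor genes lacked a κB match there while *Tnfrsf9* held one. The κB consensus, the site bound by NF-κB, was searched on both strands, and capitals mark matches.
Tnfrsf1b (chr4:145246821-145247120, minus strand): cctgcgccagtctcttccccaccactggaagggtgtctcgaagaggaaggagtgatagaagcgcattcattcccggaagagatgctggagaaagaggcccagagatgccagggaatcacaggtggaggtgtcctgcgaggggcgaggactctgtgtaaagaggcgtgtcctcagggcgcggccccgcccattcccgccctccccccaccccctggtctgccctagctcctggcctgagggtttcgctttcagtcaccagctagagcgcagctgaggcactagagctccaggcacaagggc
Tnfrsf1a (chr6:125349473-125349772, plus strand): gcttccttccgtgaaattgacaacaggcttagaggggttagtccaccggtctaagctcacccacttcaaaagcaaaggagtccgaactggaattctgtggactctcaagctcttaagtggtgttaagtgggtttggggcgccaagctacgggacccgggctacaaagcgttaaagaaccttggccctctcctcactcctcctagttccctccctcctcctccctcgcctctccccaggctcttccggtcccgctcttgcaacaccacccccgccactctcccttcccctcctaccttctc
Tnfrsf9, downstream promoter (chr4:150927749-150928048, plus strand): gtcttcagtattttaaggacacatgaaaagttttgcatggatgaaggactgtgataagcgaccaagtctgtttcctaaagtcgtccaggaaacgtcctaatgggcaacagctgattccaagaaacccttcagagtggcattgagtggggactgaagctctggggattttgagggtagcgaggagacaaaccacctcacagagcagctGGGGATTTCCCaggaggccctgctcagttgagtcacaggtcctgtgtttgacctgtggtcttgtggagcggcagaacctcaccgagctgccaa
RefSeq promoters were found for 7 of the 9 genes, 9 promoters in all, and none for *Cd40* and *Tnfsf4*. The κB consensus, found in 4.51% of all 32851 promoters of this length, was present in the downstream promoter of *Tnfrsf9* alone, as a run of 11 bases with 3 overlapping matches that begins 43 bases before the start. A second pattern, the κB core, was also searched on both strands and was found in 4.59% of all promoters. It matched none of these 9 promoters, that of *Tnfrsf9* included. The promoters of *Tnfrsf1b* and *Tnfrsf1a* held 13 and 11 CpG dinucleotides, against a median of 7 over all promoters. A match of letters is a description of the window and says nothing about binding in these cells.

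*Cd40*, on chromosome 2 (164897544 to 164914868, plus strand), encodes a receptor best known from B cells, dendritic cells and macrophages, which is triggered by CD40 ligand of T cells. Its values were 5.57, 0.344 and 1.36 scaled TPM without LPS and 20.1, 4.26 and 19.5 in the LPS samples. Both higher LPS samples exceeded all untreated ones more than 3-fold, and LPS sample 2 lay below untreated sample 1. The mean was 2.42 ± 2.77 when untreated and 14.6 ± 8.95 after LPS (SD, n = 3), and the log2 fold change of 2.26, the largest of the 9 genes, had a standard error of 0.81 (95% interval 0.29 to 4.22, unadjusted p = 0.031, adjusted p = 0.23, limma). Leaving out each sample in turn gave 1.74 to 2.92, and leaving out both samples numbered 2 gave 2.40 (unadjusted p = 0.020, limma). The 3 values of each group had the same order as the sums of the B cell and of the dendritic cell markers. Relative to the B cell sum, *Cd40* was at 1.01, 0.240 and 0.327% in the untreated and at 8.36, 6.21 and 8.57% in the LPS samples, which no longer overlapped. Relative to the dendritic cell sum it was at 14.8, 2.27 and 4.16% and at 29.3, 11.7 and 34.5%, which did, as did its ratios to the macrophage sum. These ratios were chosen after the values had been seen, and which cells carried the *Cd40* transcripts was not tested. A stretch of 154 bases is near-identical to *Gm70138*.

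*Tnfrsf14* encodes HVEM, a receptor of LIGHT that also binds the inhibitory receptor BTLA, and lies on chromosome 4 (155005126 to 155013020, minus strand). The untreated samples had 0.794, 1.17 and 3.71 scaled TPM and the LPS samples 3.53, 6.59 and 5.98. The lowest LPS sample was just under the highest untreated one. The log2 fold change was 1.24 (standard error 0.47, 95% interval 0.081 to 2.39, unadjusted p = 0.040, adjusted p = 0.26, limma). It was 0.86 with scaling to protein-coding genes, where the unadjusted p was 0.15 (limma), and 0.95 without both samples numbered 2. Stretches of at least 150 bases near-identical to 11 other genes make its values uncertain.

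*Ltbr* encodes the lymphotoxin β receptor, known for lymphoid organ formation and for the NF-κB route through the kinase NIK. The gene lies near *Tnfrsf1a* on chromosome 6 (125283534 to 125290886, minus strand). Its values were 1.42, 0.962 and 10.1 scaled TPM when untreated and 8.38, 16.0 and 4.47 after LPS. Untreated sample 3 exceeded both lower LPS samples, and the difference was not larger than the spread (log2 fold change 1.35, standard error 0.79, adjusted p = 0.45, limma). The log2 fold change was 2.13 without untreated sample 3 (unadjusted p = 0.012, limma) and 0.47 without both samples numbered 2, so single samples set its size.

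*Tnfrsf9* encodes 4-1BB, a costimulatory receptor of activated T cells that some myeloid cells also carry, and lies on chromosome 4 (150999019 to 151030559, plus strand). The untreated samples had 0.157, 3.32 and 0.335 scaled TPM and the LPS samples 1.87, 1.79 and 1.38. The LPS samples were close together, with a coefficient of variation of 15.8%, whereas the untreated group held both the lowest and the highest value. Its log2 fold change of 0.51 had a standard error of 0.56 (adjusted p = 0.64, limma), and without untreated sample 2 it was 1.10 (unadjusted p = 0.013, adjusted p = 0.13, limma).

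Of the ligand genes, *Tnfsf4*, which encodes OX40 ligand and lies on chromosome 1 (161222980 to 161245981, plus strand), was at 6.02, 0 and 1.77 scaled TPM in the untreated and at 3.84, 2.17 and 6.32 in the LPS samples. The groups overlapped (log2 fold change 0.84, standard error 0.76, adjusted p = 0.56, limma), and single samples set the size, which was 0.13 without untreated sample 2 and 1.54 without untreated sample 1 (unadjusted p = 0.055, limma). Like *Cd40*, *Tnfsf4* was lowest in the sample numbered 2 of both groups.

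*Tnfsf13b* encodes BAFF, a survival factor of B cells, and lies on chromosome 8 (10056467 to 10089072, plus strand). Its values were 1.04, 1.67 and 0.959 scaled TPM without LPS and 0.879, 0.651 and 0.331 in the LPS samples. Every LPS sample was below every untreated sample, by as little as 0.959 against 0.879. The mean of 1.22 ± 0.39 when untreated and 0.62 ± 0.28 after LPS (SD, n = 3) gave a log2 fold change of -0.46 (standard error 0.31, 95% interval -1.22 to 0.31, adjusted p = 0.54, limma), which did not pass the test and was 0.0018 with voom. *Tnfsf13* encodes APRIL, which shares the receptor TACI with BAFF, and lies on chromosome 11 (69573403 to 69576610, minus strand). It was listed at 0, 0.475 and 0.219 in the untreated samples and at 0 in all 3 LPS samples (adjusted p = 0.36, limma). It shares sequence with the read-through gene *Tnfsfm13*, listed at 0.15 to 3.07 when untreated and 0.47 to 0.57 after LPS, and with *Tnfsf13os* on the other strand, so the division of reads between them is uncertain. The difference between *Tnfsf13b* and *Tnfsf13* within a sample was 0.86 ± 0.17 when untreated and 0.68 ± 0.25 after LPS on the log2(scaled TPM + 1) scale (SD, n = 3), a shift of -0.17 (exact permutation test, two-sided, p = 0.50) whose sign turned with a pseudocount of 0.1.

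**Figure D3:**
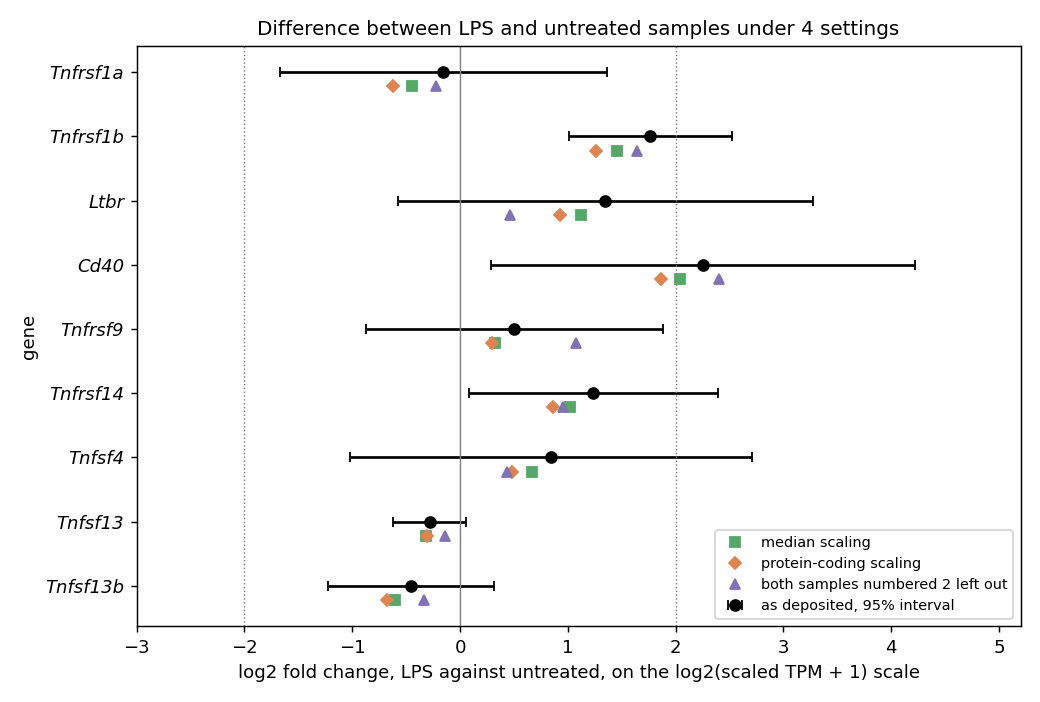
Log2 fold change of each gene, LPS against untreated, on the log2(scaled TPM + 1) scale, with its 95% interval (black) and the same value after scaling to the median gene, after scaling to protein-coding genes and without both samples numbered 2. The intervals of Tnfrsf1b, Cd40 and Tnfrsf14 exclude 0, and Cd40 alone has a point past the dotted line at 2.

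Genes around the family were counted in the same fit, where 1.69% of all genes tested passed both limits as higher and 1.31% as lower. All but 1 of the genes in the table that could be placed lie on chromosomes 1 to 13, so listed genes without a row, *Tnf* among them, were not analysed here, which says nothing about their expression. Of 15 other ligand genes, 6 were in the table and 0 passed (limma), with 2 higher and 0 lower at an unadjusted p under 0.05, and 2 passed as higher with voom. The smallest p among them was that of *Tnfsf15*, the ligand TL1A, at 0.043, 0.080 and 0.096 scaled TPM when untreated and 1.42, 0.36 and 1.81 after LPS (log2 fold change 0.97, adjusted p = 0.21, limma), which shares 298 identical bases with *Gm11482*. The median log2 fold change of the 6 was 0.44. Of 22 other receptor genes, 13 were in the table and 12 were tested, *Edar* being at 0 throughout. One of them rose, *Tnfrsf8*, which encodes CD30, from 2.95, 12.5 and 3.74 to 23.7, 32.0 and 25.4 (log2 fold change 2.14, standard error 0.52, unadjusted p = 0.0062, adjusted p = 0.11, limma). Its call was lost when any sample other than untreated sample 2 was left out, with scaling to the median gene or to protein-coding genes and with a pseudocount of 5. The median log2 fold change of the 12 was 0.46.

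Of 36 genes listed for the adaptors, kinases and ubiquitin enzymes behind the receptors, 28 were tested, 6 rose past the limits and 0 fell, with 11 higher and 1 lower at an unadjusted p under 0.05 and a median log2 fold change of 1.07. *Traf1*, an adaptor that joins TRAF2 at TNF receptor 2 and CD40, rose from 3.22, 5.83 and 3.39 scaled TPM to 58.1, 75.9 and 65.7 (log2 fold change 3.74, standard error 0.32, adjusted p = 0.011, limma). *Tnfaip3*, which encodes the ubiquitin-editing brake A20, rose from 27.7, 9.49 and 7.81 to 142, 194 and 153 (log2 fold change 3.56, adjusted p = 0.035, limma). The kinase gene *Ikbke* rose from 18.3, 42.5 and 9.89 to 159, 412 and 219 (log2 fold change 3.55, adjusted p = 0.053, limma), and *Tbk1*, which shares a stretch with *Srp72*, had a log2 fold change of 2.75. *Traf1* shares 349 identical bases with *Gm74856*. For all 4 genes each LPS sample was above each untreated one. *Traf2*, the adaptor that TNF receptor 2 binds directly, was at 17.4, 20.0 and 19.1 when untreated and at 9.11, 12.2 and 10.7 after LPS, named here after its values were seen. That difference of -0.77 (standard error 0.27, unadjusted p = 0.029, adjusted p = 0.22, limma) did not pass, and 142 other genes hold near-identical stretches of *Traf2*.

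**Figure D4:**
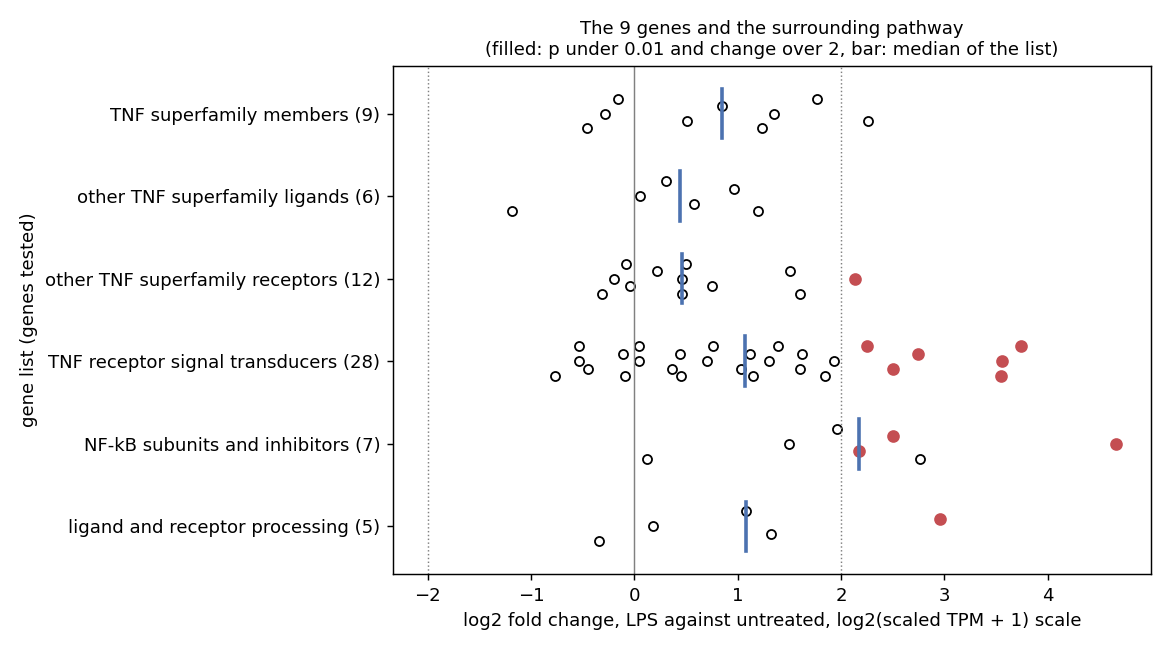
Log2 fold changes (log2(scaled TPM + 1) scale, LPS against untreated) of the 9 genes and of 5 lists around them, 1 point per gene tested, with the median of each list as a bar. None of the 9 genes is filled, that is past both limits, whereas 6 of 28 signal transducers and 3 of 7 NF-κB genes are.

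Of 11 NF-κB subunits and inhibitors, 7 were tested, 3 rose and 0 fell, with 6 higher and 0 lower at an unadjusted p under 0.05 and a median log2 fold change of 2.17. *Nfkbib*, an inhibitor of NF-κB, rose from 2.51, 4.20 and 5.33 scaled TPM to 123, 115 and 129 (log2 fold change 4.66, adjusted p = 0.0057, limma). It shares 338 identical bases with *Gm71901* and 316 with *Ccer2*, so its values are uncertain. The subunit genes *Nfkb1* and *Rel* had log2 fold changes of 2.50 and 2.17 (adjusted p = 0.022 and 0.074, limma), and *Nfkb1* shares 232 identical bases with *Gm65585*. Of 7 genes for the cutting of ligands and receptors, 5 were tested and 1 rose. This was *Furin*, the protease that cleaves BAFF and APRIL, from 8.05, 7.50 and 8.78 to 51.3, 109 and 60.9 (log2 fold change 2.96, adjusted p = 0.024, limma), a gene with near-identical stretches in 232 others. *Adam17*, the sheddase of TNF and of both its receptors, was at 10.1, 17.6 and 13.5 when untreated and at 25.2, 36.4 and 28.0 after LPS, named after its values were seen (log2 fold change 1.08, unadjusted p = 0.016, adjusted p = 0.16, limma), and it shares 341 identical bases with *Iah1*.

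The genes whose log2 values ran most closely with *Tnfrsf1b* over the 6 samples, among 9402 with a mean of at least 1, were *Csf3* (Pearson r = 0.997), *Junb* (0.996) and the long non-coding RNA gene *Gm44851* (0.995). *Csf3* encodes the neutrophil growth factor G-CSF and was at 0.424, 0.769 and 0 scaled TPM when untreated and 10.7, 27.2 and 15 after LPS. *Junb*, a subunit of the transcription factor AP-1, was at 64.2, 92.6 and 55.1 and at 292, 553 and 409. In all of them LPS sample 2 was the highest, as for *Tnfrsf1b*. *Csf3* and *Junb* share 249 and 178 identical bases with *Gm38985* and *Prdx2*. These correlations describe 6 points that fall into the 2 treatment groups and share the scaling of each sample.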

How the data were processed

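Gene-level values of 6 samples were used. Per the methods of the paper, the authors mapped reads with STAR to GRCm39, took transcript abundance from Kallisto, and the authors used edgeR for normalization. The table deposited by the authors was taken as TPM. Versions and the annotation release are not given in the sources used here, and the processing notes also name fastp and mm10. Read counts cannot be recovered from TPM, so a count test was not the main test and depth is unknown. Voom, which is meant for read counts, was run on these values only as an alternative, and they do not meet its assumption. The averaging over transcripts was checked on Cd40, whose value in untreated sample 3 is a 6-decimal number divided by 7.

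The 15690 genes at 0 in every sample were left out, and 23049 were fitted on log2(value + 1) with limma 3.58.1 (R 4.3.3, lmFit and eBayes with a trend, two-sided, no covariates). The limits of p and fold follow the study, and Benjamini-Hochberg adjustment covers all genes tested. All 9 genes are named, and from each other list up to 4 called genes per direction or, with none called, that with the smallest p. The 3 genes with the highest Pearson correlation with Tnfrsf1b are named. Members and lists were chosen with earlier results of these data known. Positions are from GENCODE M39, and near-identical stretches from blastn 2.17.0 (95% identity over 150 bases). The fit was tested on simulated data, with large changes planted only in genes of higher level and small spread. That test does not show how the fit performs for low or widely spread genes, as most of the 9 are. Alternatives were pseudocounts of 0.1 and 5, filters, scalings, no trend, voom, a replicate block, another call rule, each sample left out and, added after seeing the data, both samples numbered 2 left out.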

Additional observations from a re-analysis of the deposited data

How the results depend on the processing

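With 3 samples a group and unknown depth, only large and steady differences could pass. For all genes, 389 passed as higher and 301 as lower. The counts were 856 and 493 with a pseudocount of 0.1, 129 and 168 with a pseudocount of 5, 216 and 519 with scaling to protein-coding genes, 1552 and 177 with voom, and 206 higher by an adjusted p below 0.05 alone. Of the 9 genes, 0 passed as reported, 1 with quantile normalization (*Tnfrsf1b*) and 3 with voom (*Tnfrsf1b*, *Cd40* and *Tnfrsf14*). Voom also called 2 other ligands, 3 other receptors, 11 signal transducers and 6 NF-κB genes higher. The count of 1 for other receptors became 0 with a pseudocount of 5, with scaling to the median or to protein-coding genes and under the adjusted p, and ran from 0 to 1 as each sample was left out. With voom the sign turned for *Tnfrsf1a* (0.49), *Tnfsf13* (0.11) and *Tnfsf13b* (0.0018), and leaving out single samples gave *Tnfrsf1a* -0.74 to 0.17. The shift of *Tnfsf13b* against *Tnfsf13* became 0.48 with a pseudocount of 0.1, which weighs values near 0 more heavily. Voom also scales each sample to its sum, which was 603599 to 713384 in the untreated and 404675 to 465904 in the LPS samples. How much of the voom values comes from this scaling was not tested, nor was the cause of the other moves. Samples with the same replicate number had correlations of 0.10, 0.22 and 0.093 between their deviations from the group means, each the best for its sample, which is a hint of pairing in the data and not in the design. With the replicate block 1 of the 9 genes passed (*Cd40*, unadjusted p = 0.0057, adjusted p = 0.16, limma), and no other list changed its count by more than 1.5 times. The receptor ratio had p = 0.25 over 3 pairs (exact sign-flip test, two-sided), which is the smallest p that 3 pairs allow.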

Other observations

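Of the 12 other receptor genes tested, 5 had LPS samples all above the untreated ones (13.1% of all genes tested, 24.6% of protein-coding genes with a mean of at least 1), namely *Tnfrsf8*, described above, and 4 that did not pass the limits. The genes here are named after their values were seen. *Tnfrsf13b* encodes TACI, the receptor of BAFF and APRIL on B cells, and was at 2.88, 2.70 and 3.08 scaled TPM when untreated and at 12.4, 6.31 and 12.9 after LPS (log2 fold change 1.51, standard error 0.36, unadjusted p = 0.0053, adjusted p = 0.099, limma). All LPS samples were above all untreated ones, and LPS sample 2, with the lowest B cell marker sum, was the lowest of its group. *Tnfrsf26*, a mouse receptor without a death domain, was at 5.75, 8.11 and 3.97 and at 26.3, 15.6 and 17.8 (log2 fold change 1.60, adjusted p = 0.094, limma). *Relt*, which has a stretch of 525 bases near-identical to *Gm20949*, was at 2.13, 1.79 and 2.77 and at 3.94, 6.02 and 3.51 (log2 fold change 0.75, adjusted p = 0.32, limma). *Cd27*, a receptor best known from lymphocytes, was at 0.392, 0.339 and 0.173 and at 0.614, 0.650 and 1.15 (log2 fold change 0.46, adjusted p = 0.39, limma). *Tnfrsf23*, a neighbouring decoy receptor of TRAIL, was at 54.2, 23.7 and 14.7 and at 19.5, 24.2 and 20.5, with full overlap of the groups (log2 fold change -0.32, adjusted p = 0.74, limma). Among the ligands, *Tnfsf12*, which encodes TWEAK and shares sequence with *Tnfsfm13*, was at 6.48, 2.95 and 0.23 when untreated and at 0.91, 0 and 0.64 after LPS (log2 fold change -1.18, standard error 0.71, adjusted p = 0.46, limma).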
